A study of Homo sapiens with 8 samples.

Results

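MicroRNA genes were followed across the melphalan-resistant human myeloma line U266/LR7 and its parent U266/s. A gene was taken where a transcript cluster of the array (the set of probes for a transcript) had a single gene symbol in the platform annotation and that symbol began with MIR and a digit or with MIRLET. Host genes whose symbols end in HG were left out. This gave 173 microRNA genes of 18417 genes measured, each with 1 cluster. Another 32 clusters that list a microRNA beside other genes were not used, MIR155 and MIR143 among them. U266 is a line grown from a patient's myeloma, a cancer of antibody-secreting plasma cells. Melphalan is a DNA-alkylating drug used against that disease.

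Total RNA was measured on 8 single-channel Affymetrix arrays, 1 per condition, 12 h after treatment. The U266/LR7 conditions were melphalan (100 µM) with inhibitors of miR-221 and miR-222 (100 nM), melphalan alone, inhibitors alone, and an untreated control transfected with a negative control oligonucleotide. The same 4 conditions were run in U266/s. No condition was replicated. Separate cultures are not stated in the labels, and the p-values therefore rest on spread between arrays, possibly technical, and not on replicates. That spread also holds any joint effect of line, melphalan and inhibitors that a fit leaves out. For the melphalan-alone arrays the transfection tag reads none, while the protocol text reads as though cells without inhibitors had the control oligonucleotide. If the tags are right, the melphalan and inhibitor contrasts hold that difference too. Each line is a single line, so a difference between them is a difference between these lines.

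A microRNA gene is transcribed as a long primary RNA. The nuclease DROSHA with DGCR8 cuts a hairpin out of it, XPO5 exports the hairpin, and DICER1 cuts it to a short mature RNA that an Argonaute protein carries. The mature RNA finds target mRNAs mainly through its seed, the bases near its 5′ end. Many microRNAs lie in introns of protein-coding genes or beside each other on a shared primary RNA. Array probes for these genes report RNA of the locus, primary or hairpin, and the RNA column kit named in the labels recovers RNA of mature length poorly. The values below are therefore levels of locus RNA, while the inhibitors act on mature RNA. In myeloma, miR-221, miR-222 and miR-21 are known as growth-promoting, and miR-15a, miR-16 and miR-34a as growth-restraining.

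The hairpins of MIR221 and MIR222, whose mature RNAs the inhibitors target, and that of MIR21 are shown with the main mature arm in capitals. MIR221 lies at chrX:45746157-45746266 and MIR222 at chrX:45747015-45747124, both on the minus strand, with starts 858 bases apart. MIR21 lies at chr17:59841266-59841337 on the plus strand, within the span of VMP1, an autophagy gene. All sequences are from RefSeq (GRCh38.p14).
MIR221: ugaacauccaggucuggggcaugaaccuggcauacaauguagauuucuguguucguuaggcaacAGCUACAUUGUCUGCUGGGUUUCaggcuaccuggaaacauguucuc
MIR222: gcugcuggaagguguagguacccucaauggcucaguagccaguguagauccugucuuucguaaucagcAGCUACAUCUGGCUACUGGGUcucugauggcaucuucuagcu
MIR21: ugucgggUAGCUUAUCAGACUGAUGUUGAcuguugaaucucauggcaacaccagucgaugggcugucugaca

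The mature arms below, with the seed (bases 2 to 8) in capitals, show which members could act on the same targets. miR-221-3p and miR-222-3p share their first 8 bases and the same letter at 11 of 21 aligned positions.
hsa-miR-221-3p: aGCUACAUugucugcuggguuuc
hsa-miR-222-3p: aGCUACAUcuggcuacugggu
hsa-miR-21-5p: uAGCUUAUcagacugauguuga

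The next set holds members of the miR-15/16 family that share AGCAGCA and members of the miR-181 family that share ACAUUCA. They are shown because members with the same seed moved in opposite directions.
hsa-miR-15a-5p: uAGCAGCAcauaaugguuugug
hsa-miR-15b-5p: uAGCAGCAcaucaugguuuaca
hsa-miR-16-5p: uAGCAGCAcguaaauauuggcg
hsa-miR-181a-5p: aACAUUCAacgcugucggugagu
hsa-miR-181b-5p: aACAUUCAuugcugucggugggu

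The last set holds 3 let-7 members, sharing GAGGUAG, and the microRNA of the largest rise, miR-9-5p.
hsa-let-7f-5p: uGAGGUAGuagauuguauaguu
hsa-let-7g-5p: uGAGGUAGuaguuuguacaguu
hsa-let-7i-5p: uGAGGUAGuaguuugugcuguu
hsa-miR-9-5p: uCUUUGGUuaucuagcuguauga
Among 164 members with a mature sequence read, 94 shared a seed with another member.

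Most microRNA genes gave dim signals. Of the 173, 122 had a mean log2 signal below 5.96, the lower quartile of all genes, and 12 lay above the median of 7.38. The members brightest by mean were MIR142, a blood-cell microRNA, at 9.64, MIR326 at 9.06, MIR320A at 8.88 and MIR339 at 8.71, although signals of different probes do not rank abundance. The range over the 8 arrays had a median of 0.591 log2 units among members, against 0.847 among all genes, and 6 members ranged over more than 2 units. Array correlations over all genes were 0.986 to 0.996 within U266/LR7, 0.939 to 0.994 within U266/s, and 0.909 to 0.933 between lines. The quartile range of the array values was 3.25 and 3.34 on the U266/s arrays with melphalan and 3.58 to 3.71 on the other 6. All 8 plasma cell markers were measured, with means of 7.42 to 12.27. The 4 T-cell markers had means of 5.52 to 5.98 the 4 myeloid markers 4.49 to 6.77, the 4 stromal markers 6.37 to 7.76 and the 4 epithelial markers 5.87 to 8.73. Among the myeloid markers CD14 was called with melphalan in both lines (folds of 1.47 log2 units for U266/s, 0.55 for U266/LR7). LYZ, CSF1R and ITGAM were called in neither line (0.20, -0.05 and 0.26 in U266/s). EPCAM, an epithelial marker with a mean of 6.20, was lower with melphalan in U266/s (fold -1.77, limma adjusted p = 3.87e-05). The other epithelial markers, KRT8 (0.16), KRT18 (0.29) and CDH1 (-0.13), were not called with melphalan in U266/s. EPCAM was also lower in U266/LR7 without melphalan (-2.49). Without melphalan the epithelial CDH1 was also lower in U266/LR7 (-0.555), while KRT8 was higher (0.693) and KRT18 was not called (0.228). Of the 8 plasma cell markers, 5 were called lower and SDC1 higher with melphalan in U266/s, against 24.9% and 18.4% of all genes. The part of these marker genes in the microRNA values was not tested. In bulk RNA, fewer cells of a type and less RNA per cell cannot be told apart.

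Neither MIR221 nor MIR222, the targets of the inhibitors, passed the test between the lines. MIR221 had log2 signals of 5.17 with melphalan and inhibitors, 5.01 with melphalan, 5.26 with inhibitors and 5.27 in the control of U266/LR7. In U266/s the same conditions gave 5.28, 4.69, 5.97 and 5.24. The lines overlapped, and only the U266/s array with inhibitors alone stood clearly above the rest. The difference between lines was -0.12 ± 0.16 log2 units (SE, limma adjusted p = 0.568). Without melphalan it was -0.34, not called, and -0.60 when the U266/LR7 control array was left out, where it was called.

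MIR222 had 4.36 with melphalan and inhibitors, 4.35 with melphalan, 4.04 with inhibitors and 4.25 in the control of U266/LR7. In U266/s it had 5.96, 4.73, 6.20 and 4.03 in that order. The 2 U266/s arrays with inhibitors stood apart from the other 6, while the U266/s control was as low as the resistant line. The fold of MIR222 between U266/LR7 and U266/s was -0.98 ± 0.36 on the log2 scale, which did not pass (limma adjusted p = 0.0691). It passed with a melphalan by line term added (adjusted p = 0.0174) and with all two-way terms (0.000146). It also passed without either control array (adjusted p = 0.0395 without that of U266/LR7 and 0.0172 without that of U266/s). Without melphalan the fold was -0.97 (adjusted p = 0.106), and it ran from -1.88 to -0.05 over the alternatives. It passed there with all two-way terms (adjusted p = 0.00275) and when a control array was left out, either that of U266/LR7 (fold -1.64, adjusted p = 0.0167) or that of U266/s (fold -1.88, adjusted p = 0.00421).

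**Figure D1:**
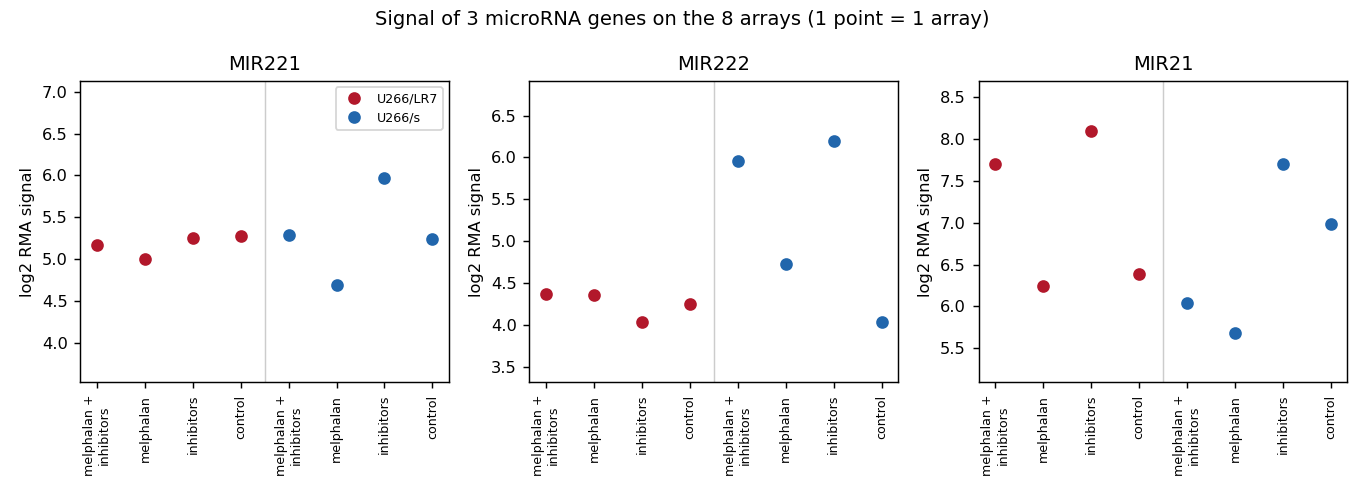
Log2 signal of MIR221, MIR222 and MIR21 on each of the 8 arrays, with U266/LR7 (red) left of U266/s (blue); each point is 1 array. MIR222 is at 5.96 and 6.20 on the U266/s arrays with inhibitors and at most 4.73 elsewhere, and MIR21 of U266/LR7 is at 7.71 and 8.10 with inhibitors, against 6.24 and 6.39 without.

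The inhibitor contrast asked whether blocking the mature microRNAs moved RNA of their own or other microRNA loci. With the inhibitor effect averaged over lines and melphalan states, 0 of 173 members and 0 of 18417 genes were called by limma (percent called 0.0 for all genes). At an unadjusted p under 0.05 there were 7 members (4.05%) and 375 genes (2.04%). The folds of MIR21, MIR222 and MIR221 were 1.06 ± 0.31, 0.80 ± 0.36 and 0.37 ± 0.16 log2 units (limma adjusted p = 1 for each). MIR148A had 0.55 ± 0.21, also not called.

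MIR21 was the member that differed most with the inhibitors. In U266/LR7 it had 7.71 with melphalan and inhibitors and 8.10 with inhibitors, against 6.24 with melphalan and 6.39 in the control. In U266/s it had 6.05 with melphalan and inhibitors, against 5.69 with melphalan, and 7.71 with inhibitors, against 6.98 in the control. The inhibitor array was thus higher in 4 of 4 matched pairs. A fit chosen after these values were seen let melphalan and inhibitors act separately in each line, which left 2 residual degrees of freedom. In it MIR21 rose with inhibitors in U266/LR7 by 1.59 ± 0.15 (limma adjusted p = 0.00941), where 8 of all genes were called (0.0434%). The call was lost without the U266/LR7 control (adjusted p = 0.0856) or the U266/LR7 inhibitor array (0.0898). Averaged over lines, this fit gave 1.06 ± 0.10 (adjusted p = 0.0101), with 15 of all genes called (0.0814%) and MIR21 the 1 member among them. In U266/s its fold was 0.54 ± 0.15 (adjusted p = 0.554), and the difference between lines, 1.05 ± 0.21, did not pass (adjusted p = 0.886). The host gene VMP1 had an inhibitor fold of 0.12 (adjusted p = 1).

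In the same added fit MIR222 had an inhibitor fold of 1.70 ± 0.20 in U266/s (limma adjusted p = 0.0909) and of -0.10 ± 0.20 in U266/LR7. Without the U266/s control or inhibitor array the U266/s value moved to 1.23, and MIR222 was not called. Without the U266/s melphalan or combination array it moved to 2.17, and MIR222 was called. Leaving out any U266/LR7 array left the U266/s value at 1.70 but changed its error, and MIR222 was then called in U266/s. These fits had 1 residual degree of freedom. The difference between lines was -1.80 ± 0.29 (adjusted p = 0.348). MIR221 had 0.66 ± 0.13 in U266/s (adjusted p = 0.417) and 0.07 ± 0.13 in U266/LR7 (adjusted p = 0.999). Neither gene was called with all 8 arrays in the fit.

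Melphalan in the parental line moved more microRNA genes than any other contrast. In U266/s 40 members rose and 8 fell with melphalan (limma adjusted p under 0.05), or 27.7% of members, against 43.4% of all genes. Rises made up 23.1% of members and 18.4% of all genes, falls 4.62% and 24.9%. With a mean below 5.96, 21 of 122 members rose (17.2%) and 4 fell. Of all genes with such a mean 20.6% were called, 13.9% higher and 6.73% lower. Among the brighter genes 45.1% of 51 members and 50.9% of all genes were called. The median fold of the members was 0.22 log2 units, against 0.07 over all genes. Over the dim genes it was 0.18 for members and 0.15 for all.

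The split into rises and falls rests on how arrays are scaled. It was 24 and 12 with median centring, 26 and 12 with quantile normalization and 20 and 12 with cyclic loess. Over all 18417 genes it was 1669 and 5409, 2785 and 4641, and 2082 and 4879 in that order. These scalings moved the median of all genes to between -0.09 and -0.03, and that of the members to between 0.01 and 0.07. All 48 members kept their direction in each, and 19 rises and 7 falls stayed called in all 3. Without the U266/s control the counts were 16 and 5, and without the U266/s melphalan array 18 and 4.

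The largest rise was that of MIR9-1, a locus of the neural microRNA miR-9. In U266/s it had 7.72 with melphalan and 6.83 with melphalan and inhibitors, against 4.75 in the control and 5.14 with inhibitors. Both melphalan arrays lay above both others, a fold of 2.33 ± 0.30 (limma adjusted p = 0.00011). In U266/LR7 it had 5.31 and 6.09 with melphalan, against 5.12 and 5.73 without, which overlap (fold 0.28 ± 0.30).

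MIR320A, whose hairpin is processed without DROSHA, had 9.97 with melphalan and 9.83 with melphalan and inhibitors in U266/s, against 7.84 in the control and 8.40 with inhibitors. The U266/s groups were apart by 1.78 ± 0.22 (limma adjusted p = 6.54e-05). In U266/LR7 it had 8.11 and 8.88 with melphalan, against 9.04 and 8.97 without, the opposite direction, with a fold of -0.51 ± 0.22 that did not pass (adjusted p = 0.208). Its relative MIR320C1 rose by 0.85 ± 0.14 in U266/s (adjusted p = 0.000448). Those values were 6.24 and 5.88 with melphalan and 5.30 and 5.12 without.

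The next rises in U266/s were smaller. MIR301A had 4.59 and 3.98 with melphalan, against 3.40 and 3.24 without (fold 0.96, limma adjusted p = 0.0016). MIR425 averaged 7.04 ± 0.04 with melphalan, against 6.09 ± 0.13 without (SD, n = 2 arrays each, fold 0.95, limma adjusted p = 0.000628). MIR197 had 8.61 and 8.43, against 7.54 and 7.70 (0.90, adjusted p = 0.00102). All 3 stayed called under every alternative in which they were tested. The 40 rises had a median of 0.58, with 2 above 1, and the same genes in U266/LR7 had folds of -0.71 to 0.37.

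**Figure D2:**
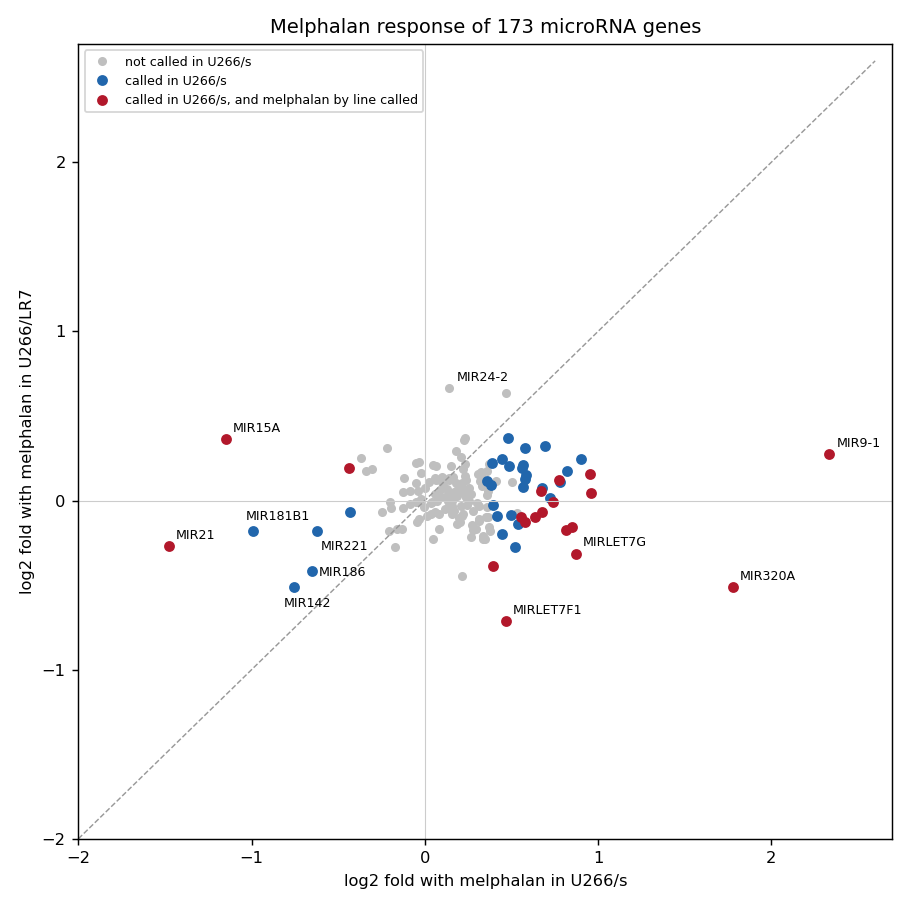
Log2 fold with melphalan in U266/LR7 (vertical axis) against that in U266/s (horizontal axis) for the 173 microRNA genes, 1 point a gene, with the dashed line marking equal folds. Grey points were not called in U266/s, blue ones were, and red ones were called there and by the melphalan by line term. MIR9-1 and MIR320A lie far right at 2.33 and 1.78 and MIR21 and MIR15A far left at -1.48 and -1.15, while nearly all U266/LR7 folds lie within 0.7 of 0.

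Of the falls, that of MIR21 was the largest. In U266/s it had 5.69 and 6.05 with melphalan, against 6.98 and 7.71 without, with no overlap. Its log2 fold was -1.48 ± 0.26 (limma adjusted p = 0.000936). In U266/LR7, where the inhibitors separated the arrays, the melphalan fold was -0.27 ± 0.26 (adjusted p = 0.666). VMP1 fell in both lines, with folds of -0.62 in U266/s (adjusted p = 0.000828) and -0.47 in U266/LR7 (adjusted p = 0.0269).

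MIR15A, at a locus on chromosome 13 often lost in myeloma, had 5.18 and 5.25 with melphalan in U266/s, against 6.60 and 6.13 without. Its fold there was -1.15 ± 0.20 (limma adjusted p = 0.000774). In U266/LR7 it had 6.61 and 6.76 with melphalan, against 6.04 and 6.60 without, a fold of 0.36 ± 0.20 (adjusted p = 0.358). DLEU2, the noncoding gene that spans it, had -0.37 in U266/s (adjusted p = 0.207) and fell in U266/LR7 with a fold of -0.95 (adjusted p = 0.0337).

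MIR181B1 had 6.14 and 5.55 with melphalan in U266/s, against 6.65 and 7.02 without (fold -0.99 ± 0.21, limma adjusted p = 0.00329). The call was lost without the U266/s inhibitor array (adjusted p = 0.0538) or the U266/s combination array (0.0541). MIR186 had 3.79 and 3.67, against 4.37 and 4.38 (fold -0.65, adjusted p = 0.0144). It was lost without the U266/s melphalan, inhibitor or combination array (adjusted p = 0.083, 0.108 and 0.051). MIR142 had 8.87 and 8.96, against 9.84 and 9.50 (fold -0.75, adjusted p = 0.0269). It was lost without any of the 4 U266/s arrays (adjusted p = 0.0564 to 0.239) and under quantile normalization (0.0885) and cyclic loess (0.069).

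MIR221 was also called lower with melphalan in U266/s, with a fold of -0.62 ± 0.18 (limma adjusted p = 0.0165), but its arrays overlapped: 4.69 and 5.28 with melphalan, against 5.24 and 5.97 without. The call was lost without the U266/s melphalan array (adjusted p = 0.148) or the U266/s inhibitor array (0.172). In U266/LR7 the fold was -0.18 ± 0.18 (adjusted p = 0.682). MIR222 had folds of 0.23 in U266/s and 0.21 in U266/LR7, neither called, and that of U266/s moved to 1.15 without the U266/s inhibitor array (adjusted p = 0.0354), to -0.68 without the U266/s control (0.22) and to -0.05 without the U266/s combination array (0.95).

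Several microRNA families were then read as lists, with no test of a list as a set. For the family counts below, 18.4% of all genes were higher and 24.9% lower with melphalan in U266/s. Of all genes with a mean below 5.96 these shares were 13.9% and 6.73%. Of the let-7 family, which represses growth genes such as RAS and HMGA2, 10 of 12 listed genes were measured. With melphalan in U266/s 5 rose and 0 fell, with a median of 0.38: MIRLET7G by 0.87, MIRLET7I by 0.82, MIRLET7F1 by 0.47, MIR98 by 0.45 and MIRLET7A1 by 0.40. Under each of the 3 scalings only MIRLET7G and MIRLET7I were called. MIRLET7G had 6.21 and 6.30 with melphalan in U266/s, against 5.55 and 5.21 without. In U266/LR7 it had 6.21 and 5.96, against 6.59 and 6.21, a fold of -0.31 (limma adjusted p = 0.271).

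Of the miR-15/16 family, which restrains BCL2 and cyclins, 6 of 8 genes were measured, and with melphalan in U266/s MIR15B rose by 0.78 while MIR15A and MIR503 fell (folds -1.15 and -0.43). Of 6 measured members of the p53-linked miR-34 and miR-192 families, 3 rose in U266/s: MIR34B by 0.72, MIR192 by 0.69 and MIR34A by 0.48. MIR34A was not called under any of the 3 scalings, MIR34B not under cyclic loess, and MIR194-1 was called lower under each. MIR34A had 5.58 and 5.21 with melphalan in U266/s, against 4.80 and 5.03 without (limma adjusted p = 0.0336). In the miR-125/99/100 group, 2 of 6 rose, MIR99B by 0.74 and MIR125B1 by 0.68. In the miR-106b-25 cluster, a growth-promoting cluster inside MCM7, 0 of 3 were called in either line, with folds of -0.22 to 0.22 in U266/s. Of 16 members in the imprinted cluster at 14q32, only MIR134 was called, at 0.52. None of the MIR17HG microRNAs had a transcript cluster of its own.

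MicroRNAs of other cell types were kept as a separate list, and 18 of 23 were measured. Of these, 15 had means below the lower quartile of all genes, among them the myeloid MIR223, with 4.31 to 4.57 in the resistant and 4.14 to 4.62 in the parental line. With melphalan in U266/s 4 rose, the neural MIR9-1, the liver MIR122 (0.54) and the epithelial MIR200B (0.49) and MIR429 (0.63). Of all genes 18.4% rose there, and 13.9% of those below the lower quartile. The list's median was 0.19 and changed sign, to -0.03, under cyclic loess. MIR9-1 was the only one of the 4 called in all 3 scalings. The epithelial MIR200A was called lower under each of them (folds -0.35 to -0.40).

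Some members that lie beside each other differed in direction or in whether they were called. Of 164 members with a position and strand read, 73 lay within 10 kb of another on the same strand, in 28 genomic clusters, the largest of 9. MIR181B1 and MIR181A1, within 281 bases on chromosome 1 and with the same seed, were called in opposite directions with melphalan in U266/s (folds -0.99 and 0.82). MIR181A1 had 4.64 and 3.75 with melphalan, against 3.43 and 3.32 without. Both calls held under the 3 scalings. MIR15A fell beside MIR16-1, within 229 bases on chromosome 13, whose fold was 0.00 (limma adjusted p = 0.989). MIR15B rose beside MIR16-2, within 238 bases on chromosome 3, which had -0.13 (adjusted p = 0.472). MIR16-1 stayed between 3.59 and 3.93 on all 8 arrays. The means of MIR16-1 (3.74) and MIR16-2 (3.86) lay far below the lower quartile of all genes, 5.96. At such dim signals a change in locus RNA may not show. MIR425 and MIR191 rose by 0.95 and 0.45, but MIR191 was not called under any of the 3 scalings (adjusted p = 0.114, 0.0922 and 0.267). MIR200A, between MIR200B and MIR429 on chromosome 1, had a fold of -0.20 (adjusted p = 0.235), where those neighbours had 0.49 and 0.63. Differences between neighbours were not tested.

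**Figure D3:**
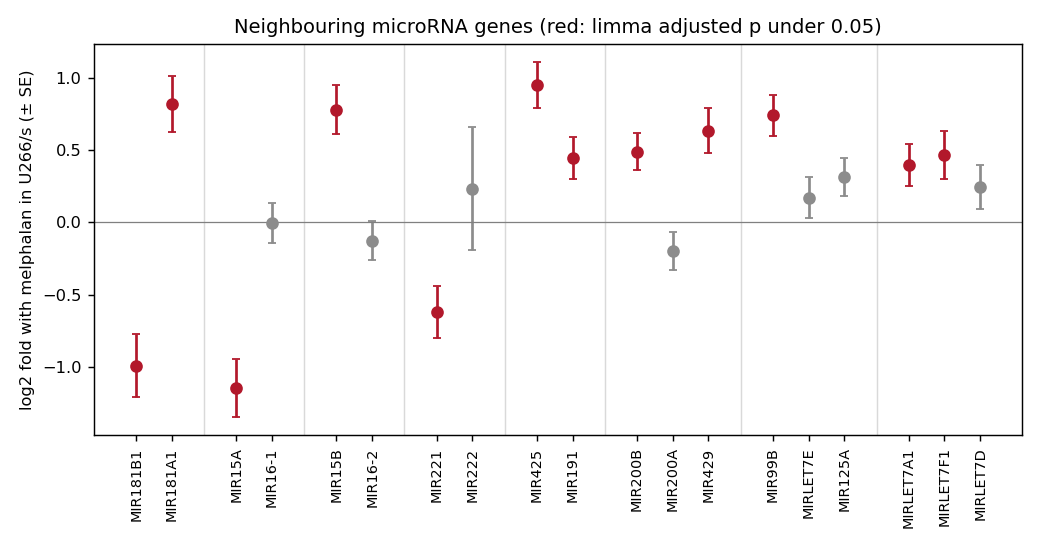
Log2 fold with melphalan in U266/s (± SE from limma) for microRNA genes grouped with their neighbours within 10 kb; red marks adjusted p under 0.05. MIR181B1 and MIR181A1 lie on opposite sides of 0, at -0.99 and 0.82, and MIR15A at -1.15 lies beside MIR16-1 at 0.00.

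The microRNA genes were next set beside the genes that hold them. Of the 164 members with a position and strand, 112 lay within the span of another RefSeq gene on that strand, and 63 member and host pairs (52 hosts) were both measured. Over these pairs the melphalan folds in U266/s had a Pearson correlation of 0.15 and a Spearman correlation of 0.075, as a description across genes that share arrays and, in some pairs, a host. The host was called lower in 16 of the 63 pairs and higher in 9, counting a shared host once per pair. Of all genes 24.9% were lower and 18.4% higher. Of the 63 pairs the member was called in 21 and the host in 25. Both genes were called in 10 pairs, and whether that exceeds what those 2 counts would give was not tested. In 5 of them both moved the same way. These were MIR21 with VMP1, both lower, and MIR9-1 with MIR9-1HG (2.33 and 0.52), MIR425 and MIR191 with DALRD3 (0.80), and MIR152 with COPZ2, all higher. In the other 5 the microRNA gene rose and the host fell. MIR423 had 0.39 and NSRP1 -1.62, MIR30C1 0.38 and NFYC -0.99, and MIR15B 0.78 and SMC4 -0.79. MIRLET7G had 0.87 and WDR82 -0.47, and MIR197 0.90 and GNAI3 -0.44. Of these 10 microRNA genes 6 stayed called under all 3 scalings, while MIR191, MIR30C1 and MIR423 were called under none and MIR152 under 2.

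**Figure D4:**
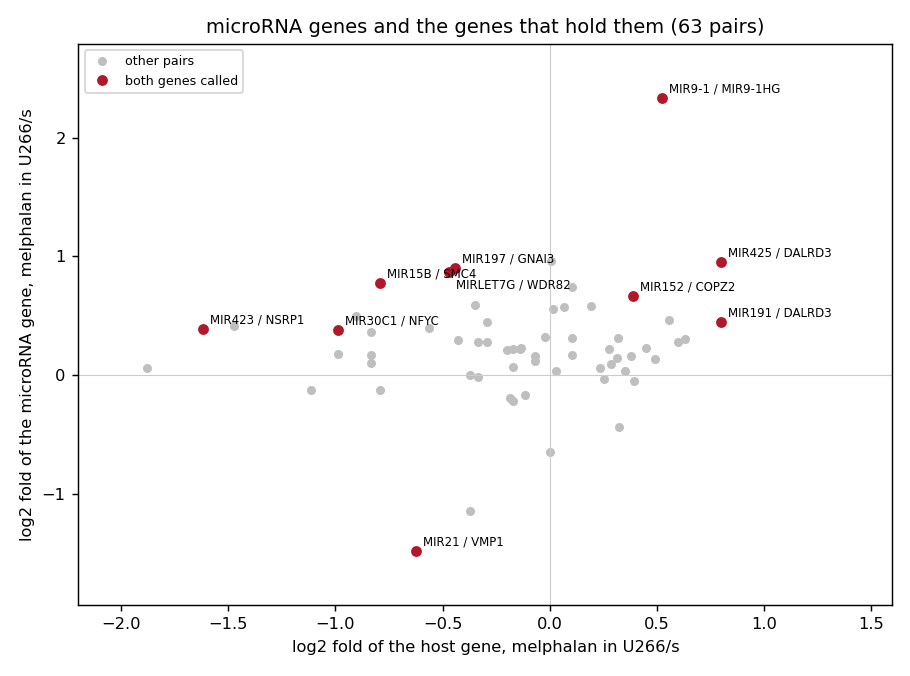
Log2 fold with melphalan in U266/s of 63 microRNA genes (vertical axis) against that of the host gene (horizontal axis), 1 point a pair; red marks pairs with both genes called. The 10 red points spread over both sides, from MIR423 at 0.39 over NSRP1 at -1.62 to MIR425 at 0.95 over DALRD3 at 0.80.

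In the resistant line melphalan moved few microRNA genes. In U266/LR7 1 member rose and 1 fell, or 1.16% of members, against 6.62% of all genes (3.02% higher and 3.61% lower). Of all genes with a mean below 5.96, where 122 of the 173 members lay, 1.22% were called. Both called members had such a mean. MIRLET7F1 had 4.78 with melphalan and 5.05 with melphalan and inhibitors, against 5.72 in the control and 5.54 with inhibitors (fold -0.71 ± 0.17, limma adjusted p = 0.0292). MIR24-2 had 4.51 and 5.22, against 4.22 and 4.19 (fold 0.66, adjusted p = 0.0437). The arrays with and without melphalan did not overlap in either gene. With single arrays left out the count ranged from 0 to 3. It was 0 without the U266/LR7 melphalan or combination array, and 1 without the U266/LR7 control, the U266/s control or the U266/s inhibitor array. The MIRLET7F1 call was lost without any of the 4 U266/LR7 arrays (limma adjusted p = 0.0538 to 0.381). That of MIR24-2 was lost without the U266/LR7 melphalan, inhibitor or combination array (0.0762, 0.302 and 0.414), without the U266/s control (0.0716) or inhibitor array (0.0715), and under median centring and cyclic loess.

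The melphalan by line term tests whether the response of U266/LR7 differed from that of U266/s. It was called in 3 members with a more positive response in U266/LR7 and in 16 with a more negative one, or 11.0% of members, against 23.9% of all genes. Of all genes with a mean below 5.96 the term called 8.32%, 4.45% more positive and 3.87% more negative. Of the 122 members with such a mean it called 0 and 8. The more negative differences made up 9.25% of members and 5.99% of all genes, the more positive ones 1.73% and 17.9%. The split of members was 6 and 10 with median centring, 8 and 11 with quantile normalization and 6 and 8 with cyclic loess. Over all 18417 genes it was 3978 and 682, 3268 and 1108, and 3163 and 950 in that order. These scalings moved the median of all genes from -0.01 to between 0.08 and 0.13. The term was called under all 3 scalings for MIR15A (1.51, limma adjusted p = 0.00269), MIR21 (1.21, adjusted p = 0.0362) and MIR503 (0.63, adjusted p = 0.0415). With opposite sign it was also called for MIR320A (-2.29), MIR9-1 (-2.06), MIRLET7G (-1.18), MIRLET7F1 (-1.18), MIR320C1 (-1.01) and MIR99B (-0.75). The MIR21 call was lost without the U266/LR7 control (adjusted p = 0.151), the U266/LR7 combination (0.14), the U266/s control (0.19) or the U266/s combination array (0.16). MIR503 was lost without the control, melphalan or combination array of either line (0.0887 to 0.174). Leaving out the melphalan array of U266/LR7 or the U266/s control gave a count of 8. It was 9 without the U266/s melphalan array, 10 without the U266/LR7 combination array and 11 without the U266/LR7 control.

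Between the lines, 7 members were higher and 13 lower in U266/LR7 with all arrays fitted, or 11.6% of members. Of all genes 33.5% were called (18.0% higher and 15.5% lower). Of all genes with a mean below 5.96, 17.6% were called (4.65% higher and 12.9% lower). Of the 122 members with such a mean, 5 were higher and 6 lower. The split of members was 9 and 5 with median centring, 6 and 8 with quantile normalization and 7 and 6 with cyclic loess. Over all 18417 genes it was 3436 and 2363, 3072 and 2904, and 3184 and 2621 in that order. The members called under all 3 scalings were MIR186, MIRLET7F1, MIR423, MIR30E and MIR101-1, higher, and MIR181B1, MIR339 and MIR138-1, lower. Leaving out the melphalan array of U266/LR7 gave 8, and the count was 7 without the U266/s combination array, and 6 without the U266/LR7 combination, U266/s melphalan or U266/s inhibitor array. With a melphalan by line term the count was 36, and with all two-way terms 34. Of all 18417 genes these fits called 5009 higher and 4837 lower, and 4938 higher and 4544 lower.

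MIR186, inside the splicing gene ZRANB2, differed most. It had 5.68, 5.56, 5.68 and 6.39 in U266/LR7 with both agents, melphalan, inhibitors and neither, against 3.67, 3.79, 4.38 and 4.37 in U266/s. Every U266/LR7 array lay above every U266/s array, with means of 5.83 ± 0.38 against 4.05 ± 0.38 (SD, n = 4 arrays under 4 treatments). The fold was 1.77 ± 0.14 (limma adjusted p = 0.000161). ZRANB2 was also higher without melphalan, by 0.47 ± 0.14 (adjusted p = 0.0262).

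MIR181B1 had 5.19, 4.88, 5.04 and 5.39 on the U266/LR7 arrays, against 5.55, 6.14, 7.02 and 6.65 in U266/s in the same order. The lines did not overlap, with a fold of -1.21 ± 0.22 (limma adjusted p = 0.005). MIRLET7F1 had 5.05, 4.78, 5.54 and 5.72, against 4.21, 4.62, 4.01 and 3.89. Its fold was 1.09 ± 0.24 (adjusted p = 0.0115) and the arrays nearest each other were those with melphalan alone. MIR423 (0.47, adjusted p = 0.00928) and MIR30E (0.43, adjusted p = 0.0118) held under every alternative as well.

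Smaller line differences were called in MIR142 (0.71), MIR148A (0.66), MIR339 (-0.57), MIR326 (-0.53), MIR138-1 (-0.52), MIR210 (-0.41) and MIR150 (-0.39), with limma adjusted p from 0.0202 to 0.0491. Each was lost in 4 to 10 alternatives, among them the fit without the U266/LR7 combination array, where adjusted p ran from 0.0859 for MIR339 to 0.172 for MIR150. MIR210 responds to low oxygen, and MIR150 and MIR142 mark blood cells. MIR21 did not pass here, at 0.50 ± 0.31 (adjusted p = 0.233). It passed with a melphalan by line term (adjusted p = 0.0397) and with all two-way terms (0.00195). It also passed without the U266/LR7 control, where its fold was 0.82 (adjusted p = 0.0426).

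**Figure D5:**
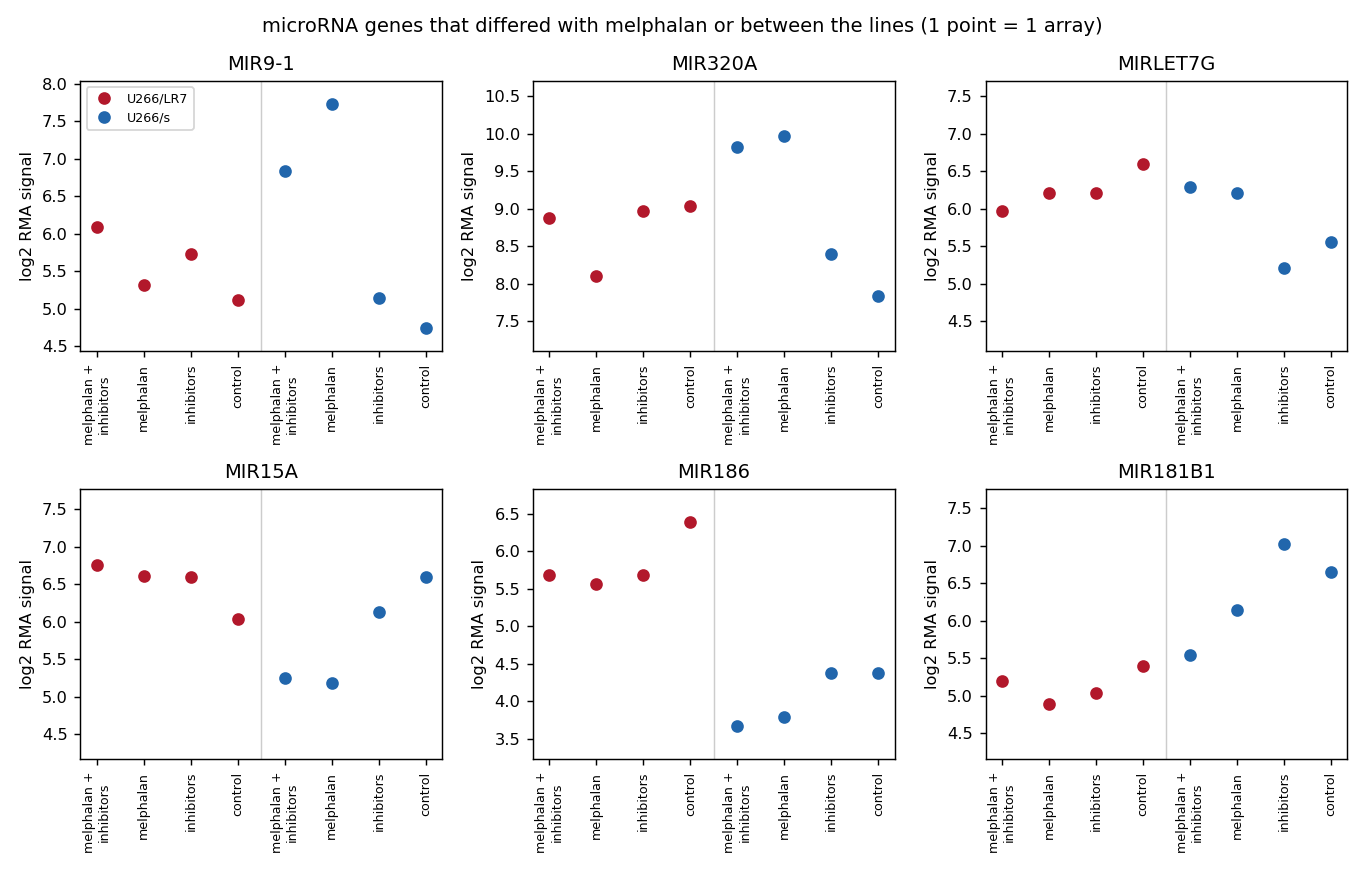
Log2 signal of 6 microRNA genes on each of the 8 arrays, with U266/LR7 (red) left of U266/s (blue); each point is 1 array. MIR186 is at 5.56 to 6.39 in U266/LR7 and 3.67 to 4.38 in U266/s, and MIR320A of U266/s is at 9.83 and 9.97 with melphalan, against 7.84 and 8.40 without.

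Without melphalan, 7 members were higher and 1 lower in U266/LR7, or 4.62% of members, against 34.7% of all genes (16.9% higher and 17.8% lower). The split was 6 and 1, 5 and 4, and 7 and 2 under the 3 scalings in the order above, and the count was 18 without the U266/LR7 inhibitor array. Over all 18417 genes the 3 scalings gave 2957 higher and 3269 lower, 2881 and 3560, and 2906 and 3453. MIRLET7F1 was higher by 1.68 ± 0.17 (limma adjusted p = 1.17e-05), MIR186 by 1.66 ± 0.18 and MIRLET7G by 1.02 ± 0.15. MIRLET7G had 6.59 and 6.21 in U266/LR7 without melphalan, against 5.55 and 5.21 in U266/s. MIR320A was higher by 0.89 (adjusted p = 0.00698), a call lost without the control array of U266/LR7 (adjusted p = 0.0649) or U266/s (0.11). MIR423 was higher by 0.55, MIR148A by 0.75 and MIR516B2 by 0.49. MIR148A was lost under each of the 3 scalings (adjusted p = 0.0557, 0.103 and 0.102), without the inhibitor array of U266/LR7 (0.456) or U266/s (0.595), and without the U266/s melphalan (0.0521) or combination array (0.0519). MIR516B2 was lost under quantile normalization (0.0526). MIR423 was lost without the inhibitor array of U266/s (0.0652). MIR181B1 was the 1 lower member, with a fold of -1.62 ± 0.21 (adjusted p = 0.000107).

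The genes that make and use microRNAs were read from a list of 25, of which 24 were measured. With melphalan in U266/s 3 were higher and 9 lower, with a median of -0.24, where 18.4% of all genes were higher and 24.9% lower. All genes above the median signal, which hold all but 2 of the 24, had a median of -0.17, with 1859 higher and 3714 lower of 9208. The nuclease gene DROSHA had 8.06 and 8.24 with melphalan, against 9.26 and 8.92 without (fold -0.93 ± 0.17, limma adjusted p = 0.000881). The exporter gene XPO5 had 9.19 and 9.52, against 10.78 and 10.67 (-1.37 ± 0.15, adjusted p = 3.6e-05). TUT7, which adds uridines to let-7 precursors, had a fold of -1.50, while AGO1 and AGO2 rose by 0.49 and 0.54. DICER1 had -0.20 and DGCR8 0.15, neither called. In U266/LR7 1 was higher and 2 lower, and XPO5 had -0.07 there (melphalan by line 1.29, adjusted p = 0.00137). Between the lines, LIN28B, which blocks let-7 maturation, was higher in U266/LR7 by 2.23 ± 0.17 (adjusted p = 0.000143). It had 8.79, 8.81, 9.26 and 9.28 in U266/LR7 with both agents, melphalan, inhibitors and neither, against 6.93, 6.91, 6.51 and 6.88 in U266/s. AGO2 was lower, with a fold of -1.52 ± 0.18 (adjusted p = 0.000711). With the inhibitors 0 of 24 were called.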

How the data were processed

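Locus RNA was measured in 8 samples, grouped from the labels as line by melphalan by inhibitors, 1 array each. Per the submitters' processing notes the authors used RMA in Affymetrix Expression Console, which gives background-corrected, normalized probe summaries; the deposited values are on a log2 scale. Versions: not given in the sources used here. In all, the deposited table held 33297 transcript clusters and 0 columns of no sample. By the platform annotation 19460 had 1 gene symbol, 1754 several and 12083 none; 769 genes had several clusters, of which the brightest by mean was kept. limma (version 3.58.1, R 4.3.3) was fitted on all 18417 genes with variances trended on intensity and p-values adjusted by Benjamini-Hochberg (threshold 0.05). An additive fit of line, melphalan and inhibitors (4 residual degrees of freedom) gave the line and inhibitor effects. Adding melphalan by line (3 residual degrees of freedom) gave the melphalan response of each line and the line difference without melphalan. The number of arrays limits the precision. The fits were tested on simulated data. Members and gene lists were chosen with earlier results of these data known. Named genes were the 6 largest calls each way, the 10 brightest by mean and 16 listed microRNAs, of which 9 were measured. Sequences and positions came from RefSeq (GRCh38.p14), matched by gene ID. Scaling, filter, model and left-out arrays were varied.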

Additional observations from a re-analysis of the deposited data

Results flagged for a closer look

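The melphalan response differed between the lines, by limma's test of the melphalan by line term, in these named genes. U266/LR7 had the more positive response for MIR15A (difference 1.51 log2 units, adjusted p = 0.00269), MIR21 (1.21, adjusted p = 0.0362) and MIR503 (0.63, adjusted p = 0.0415). It had the more negative response for MIR320A (-2.29, adjusted p = 0.000453), MIR9-1 (-2.06, adjusted p = 0.00513), MIRLET7G (-1.18, adjusted p = 0.00197) and MIRLET7F1 (-1.18, adjusted p = 0.00405). MIR320C1 (-1.01, adjusted p = 0.00309) and MIR181A1 (-0.99, adjusted p = 0.0211) ran the same way. MIR21 lost the call without the control or combination array of either line (0.14 to 0.19). MIR181A1 lost it under quantile and cyclic loess scaling (0.0522 and 0.0602) and without the U266/LR7 melphalan (0.0929), U266/LR7 inhibitor (0.0645), U266/s control (0.123) or U266/s melphalan array (0.0648).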

How the results depend on the processing

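No paired analysis was possible because every array has the replicate number 1, so the numbers pair no samples. Matching by line and treatment is part of the fits. Of 913 values of single genes under alternatives, 780 kept direction and call, 99 lost and 17 gained the call, and 17 not called in either changed sign. Of the counts of members called, the line effect (20) was 13 with cyclic loess, 36 with a melphalan by line term, 34 with all two-way terms and 5 among genes above the median signal, where 12 members were tested. That filter gave 2 for the line without melphalan (8), 10 for melphalan in U266/s (48), 0 for melphalan in U266/LR7 (2) and 6 for melphalan by line (19). Of all 9208 genes above the median signal, the line effect was called higher in 2646 and lower in 1459. For line without melphalan these counts were 2409 and 2217, and for melphalan by line 2928 and 791. For melphalan they were 1859 and 3714 in U266/s, and 637 and 626 in U266/LR7. Median centring gave 1 for melphalan in U266/LR7, and the added inhibitor fit 1 for the inhibitors (0). With each array left out the counts ran from 6 to 20 for line, 7 to 18 for line without melphalan, 21 to 48 and 0 to 3 for melphalan in U266/s and U266/LR7, 8 to 26 for melphalan by line, and 0 to 0 for the inhibitors. The causes of these shifts were not tested, except that the signal filter leaves fewer genes.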
